A study of Sus scrofa with 6 samples.

Results

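The genes of bile acid synthesis and transport were described in the livers of newborn piglets. The set holds 10 genes named from the pathway, chosen with earlier results of these data known. Of them, 7 could be matched by symbol to rows among the 26733 features of each expression table. These were CYP7A1, CYP7B1, CYP27A1 and AKR1D1 of synthesis, SLC10A1 of uptake, ABCB11 of export and the bile acid receptor gene NR1H4. BAAT, CYP8B1 and ABCB4 had no matched row and are not analysed here. RNA came from the livers of Landrace x Yorkshire piglets whose mothers received tryptophan on different daily schedules. In the High-Low group (3 libraries) the sow feed held 0.39% tryptophan in the morning and 0.13% in the afternoon. In the 2×Trp group (3 libraries) it held 0.26% at either meal. By its title, the series looked for liver genes tied to negative effects of tryptophan in the diet.

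Hepatocytes make bile acids from cholesterol, either through a classic route opened by the cholesterol 7-alpha-hydroxylase CYP7A1 or through an alternative route opened by the sterol 27-hydroxylase CYP27A1 and continued by the oxysterol hydroxylase CYP7B1. The products are taken up from blood by SLC10A1 (NTCP) and pumped into bile by ABCB11 (BSEP). Bile acids bind the nuclear receptor FXR, encoded by NR1H4, which raises the repressor SHP (gene NR0B2), the exporters ABCB11 and SLC51A/SLC51B, and thereby lowers CYP7A1 and protects the cell from bile acid load.

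Values were read as FPKM (fragments per kilobase of transcript, scaled to library size). Their totals ran from 956426 to 1230288 per library, and how many reads lie behind a value is unknown. Whether each library is a piglet or a litter of its own is not labelled, so the spread behind the p-values could be technical. Of 11 hepatocyte markers in the tables, 10 were above 0, led by APOC3 at 34665 to 72713 FPKM, and AHSG, a secreted liver glycoprotein, was listed at 0 in all 6 libraries. An exact 0 in such values can be a failed estimate. The bile duct markers were low, led by ANXA4, with 8 members summing to 37.1 to 48.5 FPKM in the High-Low livers and 40.1 to 47.3 FPKM in the 2×Trp livers. Of 3 markers of intestinal epithelium, FABP6, the ileal bile acid binding protein, was listed at 0 throughout, and VIL1, the most abundant, had 12.02 to 16.4 FPKM in High-Low and 9.14 to 14.9 FPKM in 2×Trp. High-Low 1 was lowest in the summed erythroid markers, led by HBB (5 markers, 1817 to 7198 FPKM in High-Low and 6169 to 15892 in 2×Trp), and in the stellate markers (6 markers, 80.0 to 154 and 128 to 164 FPKM in the same groups). The first principal component of the tested genes held 36.1% of the variance. It put High-Low 1 at 46.5, High-Low 2 at -38.6 and High-Low 3 at 18.4, against -23.4, -2.49 and -0.361 for 2×Trp 1, 2 and 3.

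CYP7A1, the rate-limiting enzyme of the classic route, was low and differed more between single libraries than nearly any other gene above 0 in every library. It had 5.15, 0.0233 and 1.03 FPKM in High-Low 1, 2 and 3, against 0.206, 0.0275 and 0.878 FPKM in 2×Trp 1, 2 and 3. High-Low 1 stood 5.02-fold above the next library, each diet had a library under 0.03 FPKM, and the groups overlapped. The highest value was 221 times the lowest. Among 11818 genes above 0 in every library and at 1 FPKM or more in any, 19 had a larger ratio of highest to lowest value. This ranking leaves out 59 features at 0 in a library beside 20 FPKM or more in another. The median ratio was 2.06 over those of the 10901 genes tested for a difference that were above 0 in every library. The lower end of the CYP7A1 ratio is imprecise. In High-Low 2 and 2×Trp 2, 1.14% and 1.09% of the nonzero values of features with a listed length of 1000 to 2000 bases lay below CYP7A1. CYP7A1 reached 1 FPKM in 2 libraries and so did not enter the fit across genes, which required 1 FPKM in 3. On the log2(FPKM + 1) scale it averaged 1.22 ± 1.31 in High-Low and 0.41 ± 0.45 in 2×Trp (SD, n = 3 each). The difference of 0.82 had an exact two-sided permutation p of 0.5, where 0.1 is the smallest that this design allows. Without High-Low 1 the difference was 0.12. In whole liver, fewer cells of a type and less RNA per cell cannot be told apart.

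**Figure D1:**
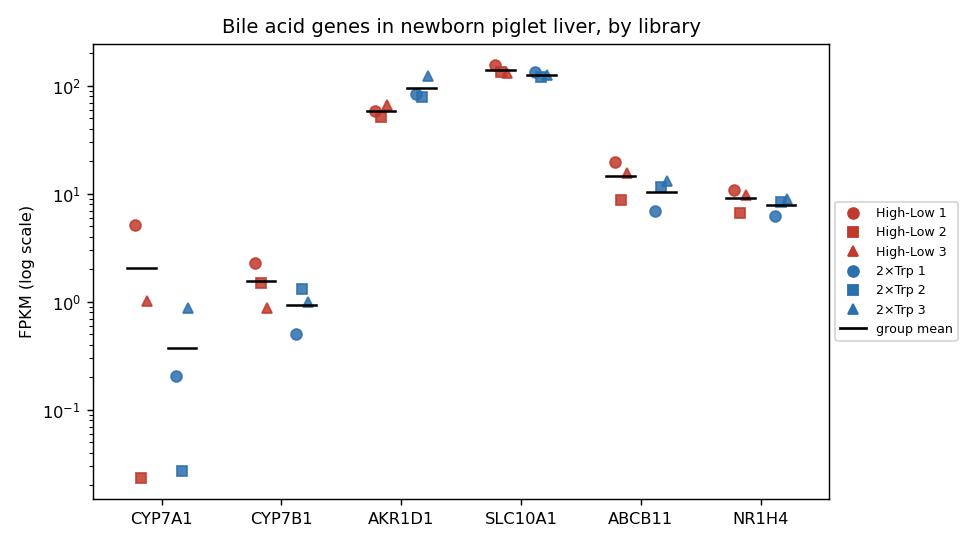
FPKM on a log axis for 6 matched bile acid genes, with a point for each library (High-Low left in red, 2×Trp right in blue, shape by replicate number) and a black line at the group mean. SLC10A1 lay between 120 and 157 FPKM in all 6 libraries, while CYP7A1 ran from 0.0233 to 5.15 FPKM; CYP27A1, listed at 0 in 3 libraries, is left out of the log axis.

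The alternative route was represented by CYP7B1 and CYP27A1. CYP7B1, which 7-alpha-hydroxylates oxysterols, had 2.30, 1.49 and 0.879 FPKM in the High-Low libraries, against 0.501, 1.33 and 1.00 FPKM in the 2×Trp libraries. High-Low 1 was highest and 2×Trp 1 lowest, and the groups overlapped. Group means were 1.56 ± 0.713 FPKM in High-Low and 0.944 ± 0.416 FPKM in 2×Trp (SD, n = 3 each). Its log2 fold change, High-Low minus 2×Trp as throughout, was 0.38 (95% interval -0.29 to 1.05), with a limma adjusted p of 0.998. Within a library, CYP7B1 was 64.0 and 48.3 times CYP7A1 in High-Low 2 and 2×Trp 2. The size of those ratios is imprecise, since CYP7A1 lay near the lowest nonzero values there. In High-Low 1 and 3 CYP7B1 was 0.447 and 0.858 times CYP7A1, and in 2×Trp 1 and 3 it was 2.44 and 1.14 times. CYP7B1 exceeded CYP7A1 in 4 of the 6 libraries, and the 2 libraries where CYP7A1 was highest were the exceptions.

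CYP27A1 is known as an abundant mitochondrial enzyme of liver, but its row held next to nothing. It was listed at 0.0736, 0.173 and 0 FPKM in High-Low 1, 2 and 3 and at 0, 0 and 0.0730 FPKM in 2×Trp 1, 2 and 3. The feature (ENSSSCG00000016199, susScr3 chromosome 15, 133828770 to 133831213, minus strand) spans 2444 bases with a listed length of 229. It lies inside the span of STK36 (133753315 to 133852318) on the same strand, and the sources used here do not give how shared reads were assigned. No level of CYP27A1 in these livers is drawn from this row.

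AKR1D1, the steroid 5-beta-reductase that gives bile acids their bent ring system, was the most abundant of the matched synthesis genes of the set in every library. It had 58.7, 50.9 and 66.8 FPKM in High-Low 1, 2 and 3, against 83.5, 78.7 and 124 FPKM in 2×Trp 1, 2 and 3. All 3 High-Low values lay below all 3 2×Trp values, and 2×Trp 3 was the highest library. Group means were 58.8 ± 7.95 FPKM in High-Low and 95.5 ± 25.1 FPKM in 2×Trp (SD, n = 3 each). The log2 fold change was -0.67 (SE 0.23, 95% interval -1.22 to -0.12), a 0.629-fold level. The unadjusted p was 0.0234 and the limma p adjusted over all genes tested was 0.998, so the difference did not pass the threshold of 0.05. The summed hepatocyte markers overlapped between the groups, at 83399 to 148678 FPKM in High-Low and 108248 to 134098 FPKM in 2×Trp. The largest part of that sum was APOC3, and single markers went both ways. APOA1 did not overlap, as in 7.18% of tested genes, at 16263 to 19960 FPKM in High-Low and 20661 to 31095 FPKM in 2×Trp. ALB had the higher mean in High-Low, at 17650 ± 3549 FPKM against 12020 ± 2996 FPKM in 2×Trp (SD, n = 3 each). The part of hepatocytes in the AKR1D1 values was not tested. Over 18 alternative settings the AKR1D1 fold change ran from -0.79 to -0.47 on the log2 scale, with an unadjusted p under 0.05 in 13. In limma fits that omitted 1 library, the fold change was -0.47 if that library was 2×Trp 3 (unadjusted p = 0.0868), -0.67 if it was High-Low 1 (unadjusted p = 0.0535) and -0.57 if it was High-Low 2 (unadjusted p = 0.0553). Quantile normalization before limma gave -0.59 (unadjusted p = 0.0586). Mitochondrial features took 10.02%, 5.83% and 6.79% of the FPKM in High-Low 1, 2 and 3, against 3.48%, 5.20% and 4.16% in 2×Trp 1, 2 and 3, without overlap. With each library scaled to its total without these features, limma gave -0.61 for AKR1D1 (unadjusted p = 0.0638).

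SLC10A1, the sodium-dependent carrier that takes conjugated bile acids up from portal blood, was high and steady. It had 157, 133 and 132 FPKM in High-Low 1, 2 and 3, against 135, 120 and 126 FPKM in 2×Trp 1, 2 and 3. The groups overlapped, with High-Low 1 highest and 2×Trp 2 lowest. It ranked between 631 and 847 among the 26733 features of each library. Its coefficient of variation over the 6 libraries was 9.47%, and 3.87% of tested genes had a lower one. The median of tested genes was 26.9%. The log2 fold change was 0.14 (95% interval -0.27 to 0.55; limma adjusted p = 0.998), so a difference beyond 1.46-fold higher or below 0.832-fold lies outside that interval.

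ABCB11, the canalicular pump that is the main driver of bile flow, had 19.7, 8.69 and 15.5 FPKM in High-Low 1, 2 and 3, against 6.98, 11.5 and 13.0 FPKM in 2×Trp 1, 2 and 3. High-Low held the highest and the second lowest value, so the groups overlapped. The means were 14.7 ± 5.57 FPKM in High-Low and 10.5 ± 3.15 FPKM in 2×Trp (SD, n = 3 each), with a log2 fold change of 0.42 (95% interval -0.39 to 1.22; limma adjusted p = 0.998). Without High-Low replicate 2 it was 0.73, and without 2×Trp replicate 1 it was 0.17. The ratio of SLC10A1 to ABCB11 mainly mirrors the ABCB11 values, since the coefficient of variation was 36.9% for ABCB11 and 9.47% for SLC10A1. SLC10A1 was 7.95, 15.3 and 8.48 times ABCB11 in High-Low 1, 2 and 3, against 19.4, 10.4 and 9.68 times in 2×Trp 1, 2 and 3.

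NR1H4 encodes FXR, the bile acid sensor. It had 10.9, 6.68 and 9.83 FPKM in High-Low 1, 2 and 3, against 6.21, 8.40 and 9.01 FPKM in 2×Trp 1, 2 and 3. The highest and second highest values were in High-Low, the second lowest too, and the groups overlapped. The log2 fold change was 0.18 (95% interval -0.40 to 0.76; limma adjusted p = 0.998). NR1H4 and ABCB11 put the 6 libraries in the same order, from 2×Trp 1 at the low end through High-Low 2, 2×Trp 2, 2×Trp 3 and High-Low 3 to High-Low 1. That order was shared by 57 tested genes, both included, or 0.523% of those tested. It differs from the order along the first principal component by the exchange of High-Low 2 and 2×Trp 1. The part of this general axis in the shared order was not tested.

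**Figure D2:**
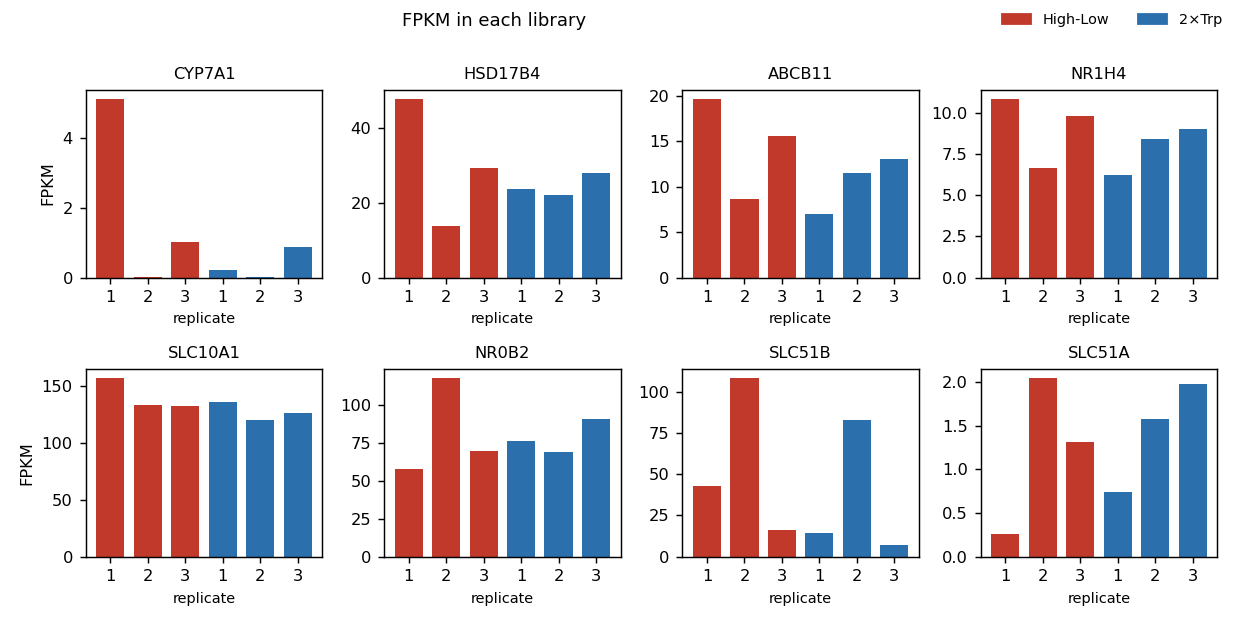
FPKM in each library (bars from 0, High-Low red on the left, 2×Trp blue on the right, x axis giving the replicate number) for 4 genes of the set and 4 of the wider list. ABCB11 and NR1H4 share their order of libraries, and CYP7A1 and HSD17B4 share theirs as listed, though High-Low 2 and 2×Trp 2 are not resolved in CYP7A1. SLC51B is highest in High-Low 2 and 2×Trp 2, where CYP7A1 is at 0.0233 and 0.0275 FPKM. High-Low 1 comes next in SLC51B and is highest in CYP7A1.

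None of the 5 tested genes of the set passed the threshold in limma (0 of 5, with 1 of 5 at an unadjusted p under 0.05). Of all 10901 genes tested, 0.00917% passed at an adjusted p under 0.05 and 3.16% had an unadjusted p under 0.05. Groups did not overlap for 1 of the 5 (AKR1D1), against 7.18% of tested genes. The median log2 fold change was 0.18 over the 5, of which 4 were positive, against a median of 0.00 (-0.0038) over the tested genes, of which 49.5% were positive. CYP7A1 and CYP27A1 lay under the filter and are not in these counts. CYP7B1 passed it with 4 libraries at 1 FPKM or more, 2 in each group.

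Other genes of the pathway came from a list of 46, of which 30 were matched to rows and 25 were tested. In this list too 0 passed the threshold (0 at an unadjusted p under 0.05, smallest 0.0511), 18 were positive and 7 negative, and the median log2 fold change was 0.16. High-Low 1 held the highest value of 14 of the 30 tested genes of both lists (46.7%) and High-Low 2 that of 9 (30.0%), against 23.6% and 23.8% of all genes tested. The lowest value was in 2×Trp 1 for 9 of the 30 (30.0%), against 17.2% of all genes tested. These shares were not tested.

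Among the 6 further synthesis genes tested, 3 were positive and 3 negative, and the groups overlapped for all 6. The abundant ones act in peroxisomes, where the cholesterol side chain is shortened. ACOX2, the oxidase of that step, had 52.4, 30.7 and 59.2 FPKM in High-Low, against 55.6, 39.6 and 57.4 FPKM in 2×Trp. HSD17B4, the bifunctional enzyme that follows it, had 47.7, 13.7 and 29.2 FPKM in High-Low, against 23.7, 21.9 and 28.0 FPKM in 2×Trp. Its order of libraries was that of CYP7A1, an order found in 77 tested genes (0.706%), while its ratio of highest to lowest value was 3.48. That order differs from the one along the first principal component by the exchange of 2×Trp 1 and 2×Trp 2. The part of this general axis in the order was not tested. CYP7A1 in High-Low 2 and 2×Trp 2, at 0.0233 and 0.0275 FPKM, lay near the lowest nonzero values. Which of them was lower is not resolved, so the match with HSD17B4 is of the listed values only. ACOT8, a peroxisomal thioesterase, averaged 37.3 ± 8.24 FPKM in High-Low and 38.0 ± 5.38 FPKM in 2×Trp (SD, n = 3 each). CYP39A1, a 7-alpha-hydroxylase of 24-hydroxycholesterol, averaged 2.92 ± 0.614 and 2.78 ± 0.730 FPKM in the same groups. SLC27A2, an acyl-CoA synthetase that activates bile acid precursors, had the smallest p of the 6, with a log2 fold change of 0.29 (95% interval -0.57 to 1.15), which was 0.10 without 2×Trp replicate 2 or High-Low replicate 1 and 0.66 without 2×Trp replicate 3. CYP4A21, which makes the hyocholic acids characteristic of pig bile, had no matched row and is not analysed here.

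Among list genes above 0 in all 6 libraries, a sinusoidal exporter had the largest ratio of highest to lowest value after CYP7A1, at 14.9. SLC51B, the beta subunit of the organic solute transporter that returns bile acids to blood, had 42.7, 108 and 16.5 FPKM in High-Low 1, 2 and 3, against 14.1, 82.9 and 7.30 FPKM in 2×Trp 1, 2 and 3. High-Low 2 and 2×Trp 2 were the highest libraries, and they are the ones in which CYP7A1 was lowest. High-Low 1, however, came next in SLC51B and was highest in CYP7A1. FGFR4, NR1H3 and the hepatocyte markers APOC3, TTR, AMBP, ASGR1 and TF were also highest in High-Low 2 and 2×Trp 2. TF had 9420, 16829 and 3490 FPKM in High-Low, against 3870, 12410 and 1832 FPKM in 2×Trp. Its ratio of highest to lowest value was 9.19, and High-Low 1 came next there too. A tie of SLC51B to CYP7A1 was not tested. The coefficient of variation of SLC51B was 91.8%, and 98.2% of tested genes had a lower one. Its log2 fold change was 0.99 (95% interval -1.22 to 3.21; limma adjusted p = 0.998). Omitting 2×Trp replicate 3 gave 0.29 and omitting 2×Trp replicate 2 gave 1.96. Omitting High-Low replicate 2 gave 0.33, while 1.66 was found once High-Low replicate 3 was left out. With array weights it was 0.24. The alpha subunit SLC51A, which forms the transporter together with SLC51B, stayed low at 0.258, 2.05 and 1.31 FPKM in High-Low and 0.736, 1.58 and 1.98 FPKM in 2×Trp. The organic anion carrier SLCO2B1 had 86.6, 155 and 65.4 FPKM in High-Low, against 95.8, 86.4 and 53.2 FPKM in 2×Trp. ABCC3, which exports conjugates to blood, averaged 3.13 ± 2.23 FPKM in High-Low and 2.42 ± 0.329 FPKM in 2×Trp (SD, n = 3 each). SLC10A2, the ileal bile acid carrier, was listed at 0 in all 6 libraries.

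**Figure D3:**
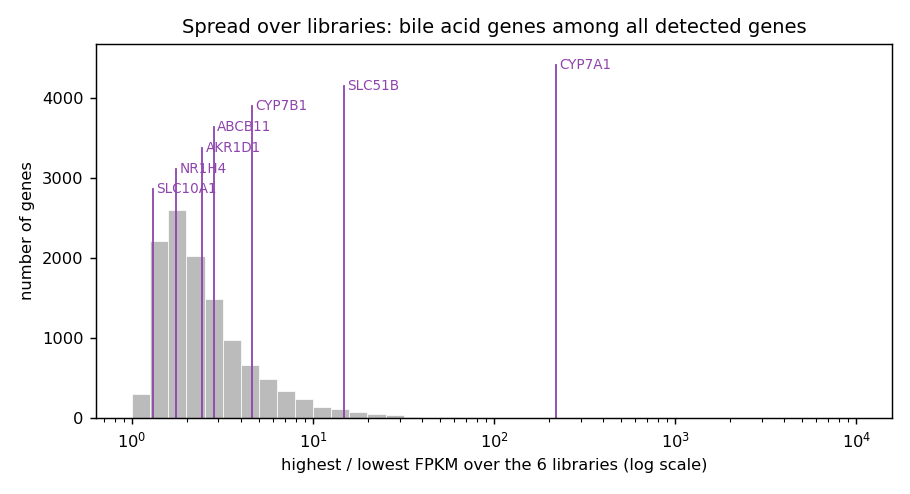
Histogram of the highest over the lowest FPKM across the 6 libraries (log x axis) for 11811 genes above 0 in all libraries and at 1 FPKM or more in any; 7 more lie beyond the right edge. Purple lines mark genes of the set and SLC51B, with SLC10A1 at 1.31 on the low side and CYP7A1 at 221 far to the right.

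The 3 further canalicular genes tested had positive fold changes, with a median of 0.44 on the log2 scale, and the groups overlapped for each. ABCG8, a subunit of the sterol exporter, had 18.7, 25.6 and 31.3 FPKM in High-Low, against 14.7, 20.2 and 19.3 FPKM in 2×Trp. Its log2 fold change was 0.44 (95% interval -0.13 to 1.02). The limma fold change was 0.27 with High-Low 3 left out, 0.63 with High-Low 1 left out (unadjusted p = 0.0365) and 0.62 with array weights (unadjusted p = 0.0180). ABCC2, which exports bilirubin and bile acid conjugates, had 13.2 FPKM in High-Low 1 and 4.81 to 6.08 FPKM in the other 5 libraries. ATP8B1, the flippase that protects the canalicular membrane, averaged 1.33 ± 0.428 FPKM in High-Low and 0.929 ± 0.287 FPKM in 2×Trp (SD, n = 3 each).

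Of 12 regulators tested, 9 were positive and 3 negative, and the groups did not overlap for 3, GPBAR1 and NR5A2 among them. Over the whole wider list that was 3 of 25, or 12%, against 7.18% of tested genes. NR0B2, which encodes the repressor SHP downstream of FXR, had 57.8, 118 and 69.5 FPKM in High-Low, against 75.9, 68.9 and 90.7 FPKM in 2×Trp. High-Low held the lowest and the highest value. The lowest was in High-Low 1, where CYP7A1 was highest, and the highest was in High-Low 2, where CYP7A1 was listed lowest (0.0233 FPKM). By contrast, 2×Trp 2, with CYP7A1 at 0.0275 FPKM, had the second lowest NR0B2. These CYP7A1 values of High-Low 2 and 2×Trp 2 are too near the lowest nonzero values to be put in order. Of all genes tested, 23.8% were lowest in High-Low 1 and 23.8% were highest in High-Low 2. A tie of NR0B2 to CYP7A1 was not tested. NR0B2 was 5.31, 17.6 and 7.07 times NR1H4 in High-Low 1, 2 and 3, against 12.2, 8.20 and 10.1 times in 2×Trp 1, 2 and 3. FGFR4, the receptor through which the ileal hormone FGF19 lowers CYP7A1, had 33.8, 55.7 and 27.2 FPKM in High-Low, against 29.4, 40.6 and 22.6 FPKM in 2×Trp. The hormone gene FGF19 itself was listed at 0 in all 6 libraries. The abundant regulators also included NR1H3, the oxysterol receptor LXR alpha, at 128 ± 43.8 FPKM in High-Low and 125 ± 13.8 FPKM in 2×Trp. The liver factor FOXA2 had 66.2 ± 7.73 FPKM in High-Low and 75.4 ± 17.1 FPKM in 2×Trp, and HNF4A, which activates CYP7A1, had 63.6 ± 1.91 FPKM in High-Low and 59.3 ± 21.5 FPKM in 2×Trp (SD, n = 3 each).

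GPBAR1, the membrane bile acid receptor TGR5, had the smallest p of the wider list. It had 1.36, 4.999 and 5.70 FPKM in High-Low 1, 2 and 3, against 7.00, 7.79 and 8.26 FPKM in 2×Trp 1, 2 and 3. All High-Low values lay below all 2×Trp values, and High-Low 1 was lowest by far. The log2 fold change was -0.93 (95% interval -1.86 to 0.01; unadjusted p = 0.0511, limma adjusted p = 0.998), and -0.45 without High-Low replicate 1. In rat and human liver this receptor is known from Kupffer cells, sinusoidal endothelium and bile ducts. The summed FPKM of 5 macrophage markers, all above 0 and led by C1QA, was 246 to 444 in High-Low and 413 to 572 in 2×Trp, and lowest in High-Low 1. Most of that sum was C1QA, at 190 to 363 FPKM in High-Low and 335 to 469 FPKM in 2×Trp. MARCO alone among these markers had the higher mean in High-Low, at 14.5 ± 5.11 FPKM against 9.92 ± 3.29 FPKM in 2×Trp (SD, n = 3 each). For 6 endothelial markers, all above 0 and led by PECAM1, the sum was 56.6 to 80.7 FPKM in High-Low and 81.9 to 121 FPKM in 2×Trp. The part of these cells in the GPBAR1 values was not tested.

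NR5A2 (LRH-1), named because its groups did not overlap, is a nuclear receptor that supports CYP7A1 transcription. NR5A2 had 13.0, 10.6 and 11.2 FPKM in High-Low, against 8.30, 10.3 and 9.38 FPKM in 2×Trp, with a log2 fold change of 0.29 (95% interval -0.15 to 0.73). The lowest High-Low value lay close to the highest 2×Trp value, and NR5A2 did not pass the limma threshold (adjusted p = 0.998).

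**Figure D4:**
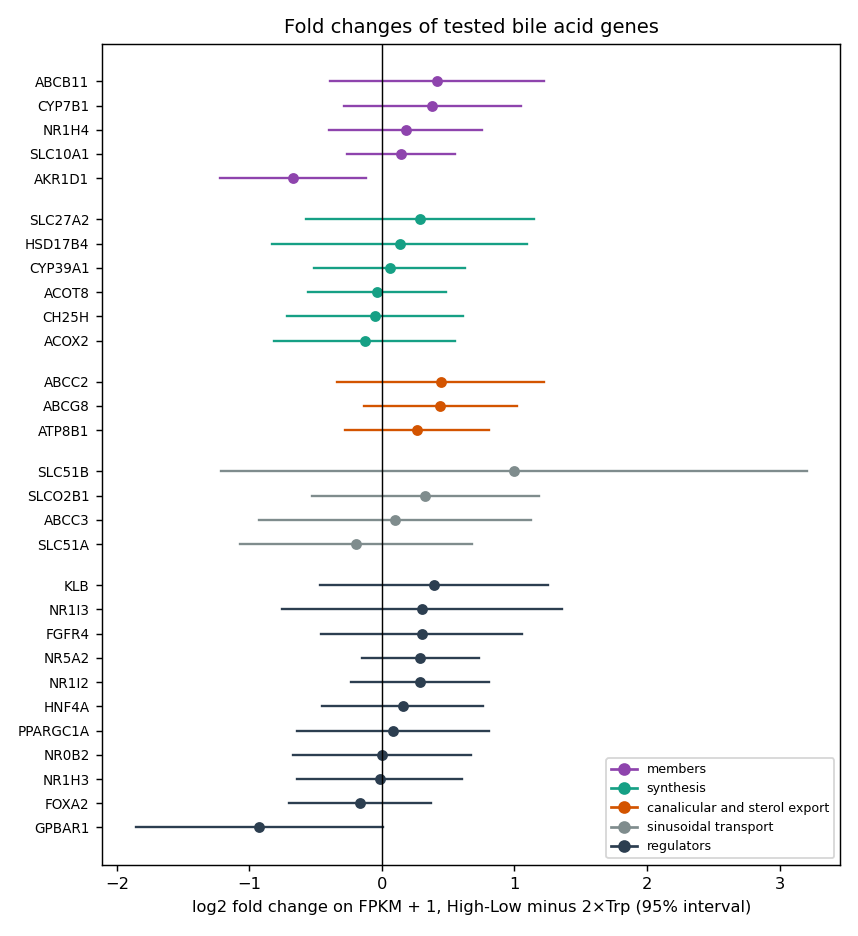
Log2 fold changes of FPKM + 1, High-Low minus 2×Trp, with 95% intervals from limma for 29 of the 30 tested bile acid genes, grouped by role. The interval of AKR1D1 (-1.22 to -0.12) leaves out 0 before adjustment for 10901 tests, that of SLC51B (-1.22 to 3.21) is the widest, and none of them passed the adjusted threshold.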

How the data were processed

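Sample titles gave the groups and the replicate numbers. The authors deposited 1 table per library without naming a unit, and its values were read as FPKM, being fractional with totals that differ between libraries. Per the submitters' processing notes, HTSeq 0.6.1, TopHat2 2.0.12 and Bowtie2 2.2.3 were used with the assembly susScr3. The sources used here give neither the step that made the values nor its annotation, strand setting or divisor length. The 2nd percentile of nonzero values was 0.0452 FPKM at listed lengths of 150 to 250 bases and 0.0165 FPKM at 3000 to 5000, so the listed length is not taken as the divisor, and levels of different genes are compared as deposited.

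A symbol table named 11804 of the 25322 Ensembl identifiers. The 10901 genes that reached 1 FPKM in 3 or more libraries entered limma 3.58.1 (R 4.3.3) as log2(FPKM + 1), with trended, robust variance, Benjamini-Hochberg adjustment and a threshold of 0.05. Such fold changes understate those of low genes. CYP7A1 was compared by an exact permutation test in scipy 1.17.1.

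The set and the lists were chosen with earlier results of these data known. Named genes are the set, the 4 most abundant and the one of smallest p in each role group, and CYP4A21, NR0B2, SLC51A, SLC51B and FGFR4. NR5A2, SLC10A2 and FGF19 were named after their values were seen. Of the marker lists, the most abundant member and those at 0 throughout are named. MARCO and the hepatocyte markers named besides APOC3 and AHSG were added once their values were seen. Some list genes are counted but not reported here. Alternatives were other filters, pseudocounts and scalings, other variance estimates, array weights, the replicate number as a block and fits without each library. Figures were drawn with matplotlib 3.10.9.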

Additional observations from a re-analysis of the deposited data

How the results depend on the processing

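The 11 genes whose fold changes are given kept their direction in all 18 alternative fits (198 values). Directions under the other filters, the other variance estimates and the replicate block were fixed in advance, since these settings leave the fold change itself unchanged. So was that of CYP7A1 under quantile normalization, which left genes under the filter as they were. In the alternative fits and at an adjusted p under 0.1, 0 genes of the set and 0 of the wider list passed the threshold. Over all genes tested, 1 was higher and 0 were lower; 1 was lower at an adjusted p under 0.1, with libraries scaled to their FPKM total, their nuclear total or their total less the 20 most abundant genes, with quantile normalization and with array weights, and leaving out single replicates gave 1 to 2 higher and 0 lower. CYP7A1 ran from 0.12 without High-Low replicate 1 to 1.42 with a pseudocount of 0.1 on the log2 scale. CYP7B1 ran from 0.07 with array weights to 0.66 with that pseudocount, and NR1H4 from 0.04 without 2×Trp replicate 1 to 0.37 without High-Low replicate 2. AKR1D1 had an adjusted p of 0.245 with array weights, its lowest.

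With the replicate block, 1 gene was higher and 0 lower, 0 of either list passed, and the unadjusted p of SLC51B was 0.0131 in place of 0.326. Deviations from the group means of same-numbered libraries correlated at -0.216, -0.0113 and 0.0323, and no High-Low library correlated best with its own number, so the numbers were not taken as pairs. Depth is unknown, which limits what the lowest CYP7A1 and CYP27A1 values can show.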
